A study of Mus musculus with 16 samples.

Results

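The 5 adipokine gene loci are stretches of the mouse genome around Adipoq, Retn, Lep, Cfd and Rbp4, genes for hormones or other secreted proteins of fat cells. They were examined in maps of the transcription factors PPARγ and C/EBPα in 3T3-L1 adipocytes. Members were the listed peaks whose centre lay in a window of 80 to 100 kb around each gene in build mm9, a choice by position and not by signal. The windows held 37 of the 30588 PPARγ peaks and 36 of the 30519 C/EBPα peaks, 73 of 61107 in all. Adipoq on chromosome 16 had 8 PPARγ and 6 C/EBPα peaks, and Retn on chromosome 8 had 6 and 9. Lep on chromosome 6 had 8 and 11, Cfd on chromosome 10 had 13 and 8, and Rbp4 on chromosome 19 had 2 and 2.

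The study used chromatin immunoprecipitation and sequencing (ChIP-seq), which counts DNA fragments held by a protein. Cells were from 3T3-L1, a single mouse fibroblast line that becomes fat cells in culture after dexamethasone, 3-isobutyl-1-methylxanthine and insulin, and were at day 7 in every group. They had received 1 µM rosiglitazone in 0.1% DMSO, or 0.1% DMSO alone, for 1 h. The groups used were PPARγ, C/EBPα, MED1 and CBP ChIP with rosiglitazone and the same 4 with DMSO, out of 16 samples in 12 groups. The other groups were not analysed here. A ChIP of a culture averages over its cells, so a larger share of cells bound and more binding per cell cannot be told apart.

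PPARγ is a nuclear receptor that binds DNA as a pair with RXR, at direct repeats of the half-site AGGTCA, and rosiglitazone is its agonist. C/EBPα is a leucine zipper factor that shares many enhancers with it. MED1 is the Mediator subunit that nuclear receptors contact, and CBP acetylates histones. Adipoq encodes adiponectin, which raises insulin sensitivity. Retn encodes resistin, which in mice is made by fat cells and opposes insulin. Lep encodes leptin, the satiety hormone, Cfd encodes adipsin, also called complement factor D, and Rbp4 encodes the carrier of retinol in blood.

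The promoters of these genes differ in the letters that C/EBP factors recognise, and 3 are shown for that reason. The sequences are RefSeq windows in build GRCm38.p6 from 250 bases before to 50 bases after a gene start, printed 5′ to 3′ on the gene's strand, with C/EBP matches in capitals. Lep is at chr6:29059971-29060270 on the plus strand. The Rbp4 start shown, 1 of a pair listed for that gene, is at chr19:38124762-38125061 on the minus strand, and Adipoq is at chr16:23146286-23146585 on the plus strand.
Lep: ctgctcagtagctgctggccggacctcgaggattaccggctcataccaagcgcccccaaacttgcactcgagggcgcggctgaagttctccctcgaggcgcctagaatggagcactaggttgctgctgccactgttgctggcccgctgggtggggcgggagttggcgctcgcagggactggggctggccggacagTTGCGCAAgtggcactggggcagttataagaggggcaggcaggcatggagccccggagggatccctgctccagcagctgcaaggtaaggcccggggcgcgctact
Rbp4: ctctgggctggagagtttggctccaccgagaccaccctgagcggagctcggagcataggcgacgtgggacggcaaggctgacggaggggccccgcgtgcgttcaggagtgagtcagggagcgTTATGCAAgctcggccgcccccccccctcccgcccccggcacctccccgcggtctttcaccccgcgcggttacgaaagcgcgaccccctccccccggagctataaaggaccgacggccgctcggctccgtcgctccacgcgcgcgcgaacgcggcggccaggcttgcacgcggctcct
Adipoq: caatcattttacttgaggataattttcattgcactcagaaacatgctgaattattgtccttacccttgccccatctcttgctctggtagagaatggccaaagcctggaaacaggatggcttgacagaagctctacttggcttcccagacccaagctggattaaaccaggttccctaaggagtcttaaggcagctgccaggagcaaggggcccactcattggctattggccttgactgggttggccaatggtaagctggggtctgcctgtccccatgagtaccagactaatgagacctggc
All 5 genes matched the table, with 6 windows in all. Both strands were searched for the C/EBP palindrome TTGCGCAA, the looser form TTGCNNAA, which includes it, the half-site AGGTCA, and a direct repeat of the relaxed half-site AGGNCA with 1 base between its copies. The palindrome was found in Lep, at bases 196 to 203 of its window, and is present in 0.183% of all 32851 promoter windows. The looser form was also found in the Rbp4 window, at bases 123 to 130 as TTATGCAA, and is present in 10.8% of all windows. The half-site, present in 16.3%, and the relaxed repeat, present in 0.381%, had no match in any of the 6 windows. The peaks are in mm9 coordinates and no mm9 genome was used, so distances between peaks and gene starts are not given and the bases under the peaks are not shown.

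Other genes lie beside these. In the RefSeq order of protein-coding genes, Adipoq sits between Rfc4 and St6gal1, Retn between Stxbp2 and Mcemp1, and Lep between Lrrc4 and Rbm28. Cfd sits between Elane and Med16, and Rbp4 between Ffar4, which encodes a fatty acid receptor of fat cells, and Pde6c. A peak is therefore described by its window and is not assigned to a gene.

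Peak values below are in deposited units, the tags (mapped reads) counted in a peak after scaling by the authors. Each factor had 1 column per treatment, so no difference between treatments has a replicate check and none has a p-value. Whether a PPARγ column holds 1 of the 2 labelled samples or both pooled is not stated. Ratios are rosiglitazone over DMSO with an exact 95% interval from the tags (Clopper-Pearson), which covers counting error only. "Beyond counting error" means that this interval does not include 1. Over all peaks the summed ratio was 1.53 for PPARγ, 1.63 for MED1 and 1.38 for CBP at PPARγ peaks, and 1.01 for C/EBPα at C/EBPα peaks. Few tags lay behind the coactivator values: the median over the 37 PPARγ peaks was 4 MED1 tags in rosiglitazone and 8 in DMSO, and 2 and 6 CBP tags. Over all PPARγ peaks the medians were 1 and 2 MED1 tags and 1 and 2 CBP tags. An interval excludes 1 more easily where tags are many. Shares of peaks beyond counting error are therefore not matched for tag number between the loci and the lists.

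Peaks were dense at 4 of the 5 loci. Cfd had 13 PPARγ peaks in 90 kb, and 0.0957% of consecutive genome windows of that length had as many. Its mean over the genome was 1.05 peaks. For Adipoq and Lep, with 8 PPARγ peaks each in 100 kb, the share of windows was 2.08%, and for Retn, with 6 in 80 kb, it was 3.09%. In the C/EBPα list the shares were 0.269% for Lep, 0.367% for Retn, 1.14% for Cfd and 4.29% for Adipoq. Rbp4 had a usual number, since 25.5% of windows had at least 2 PPARγ peaks and 26.7% at least 2 C/EBPα peaks. Gene density was not matched in this description.

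The 73 peaks formed 53 sites when overlapping peaks were merged. Both factors were listed at 20 sites, PPARγ alone at 17 and C/EBPα alone at 16. Shared sites were 54.1% of the 37 PPARγ peaks (95% interval 36.9 to 70.5, with peaks counted as independent), beside 36.1% of the whole list. They were 55.6% of the 36 C/EBPα peaks (38.1 to 72.1), beside 36.2%. Score was not matched in these comparisons. Of the loci's peaks, 27 of 37 for PPARγ and 26 of 36 for C/EBPα scored above their list's median. Over the whole lists, shared peaks had higher median scores than unshared ones, 15.0 against 10.3 for PPARγ and 21.8 against 13.7 for C/EBPα. By locus, PPARγ peaks were shared at 2 of 2 for Rbp4, 5 of 6 for Retn, 4 of 8 for Adipoq, 6 of 13 for Cfd and 3 of 8 for Lep. Lep stood at the other end for C/EBPα as well, with 8 of its 11 peaks unshared. The centres of the 20 shared pairs lay a median of 38.5 bp apart, 5 of them under 20 bp and the widest 205 bp.

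The shared PPARγ peaks also carried more of the other proteins, as shared peaks did in the whole list. Score was not matched here either, with a median of 22.85 at the shared and 13.7 at the unshared PPARγ peaks of the loci. At the 20 shared peaks the median MED1 was 57.4 units in rosiglitazone and 59.4 in DMSO, and at the 17 unshared peaks 15.3 and 21.0. In the whole list these medians were 15.3 and 17.5 at shared peaks and 7.65 and 3.49 at the others. Median CBP at the loci was 36.4 and 26.5 at shared peaks, and 0 and 4.42 at unshared peaks. In the whole list it was 12.1 and 11.05 at shared peaks and 0 and 2.21 at the others. Median PPARγ at the loci was 27.4 and 18.0 at shared peaks, and 15.8 and 13.2 at unshared peaks. In the whole list it was 18.3 and 12.3 at shared peaks and 12.5 and 9.67 at the others.

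**Figure D1:**
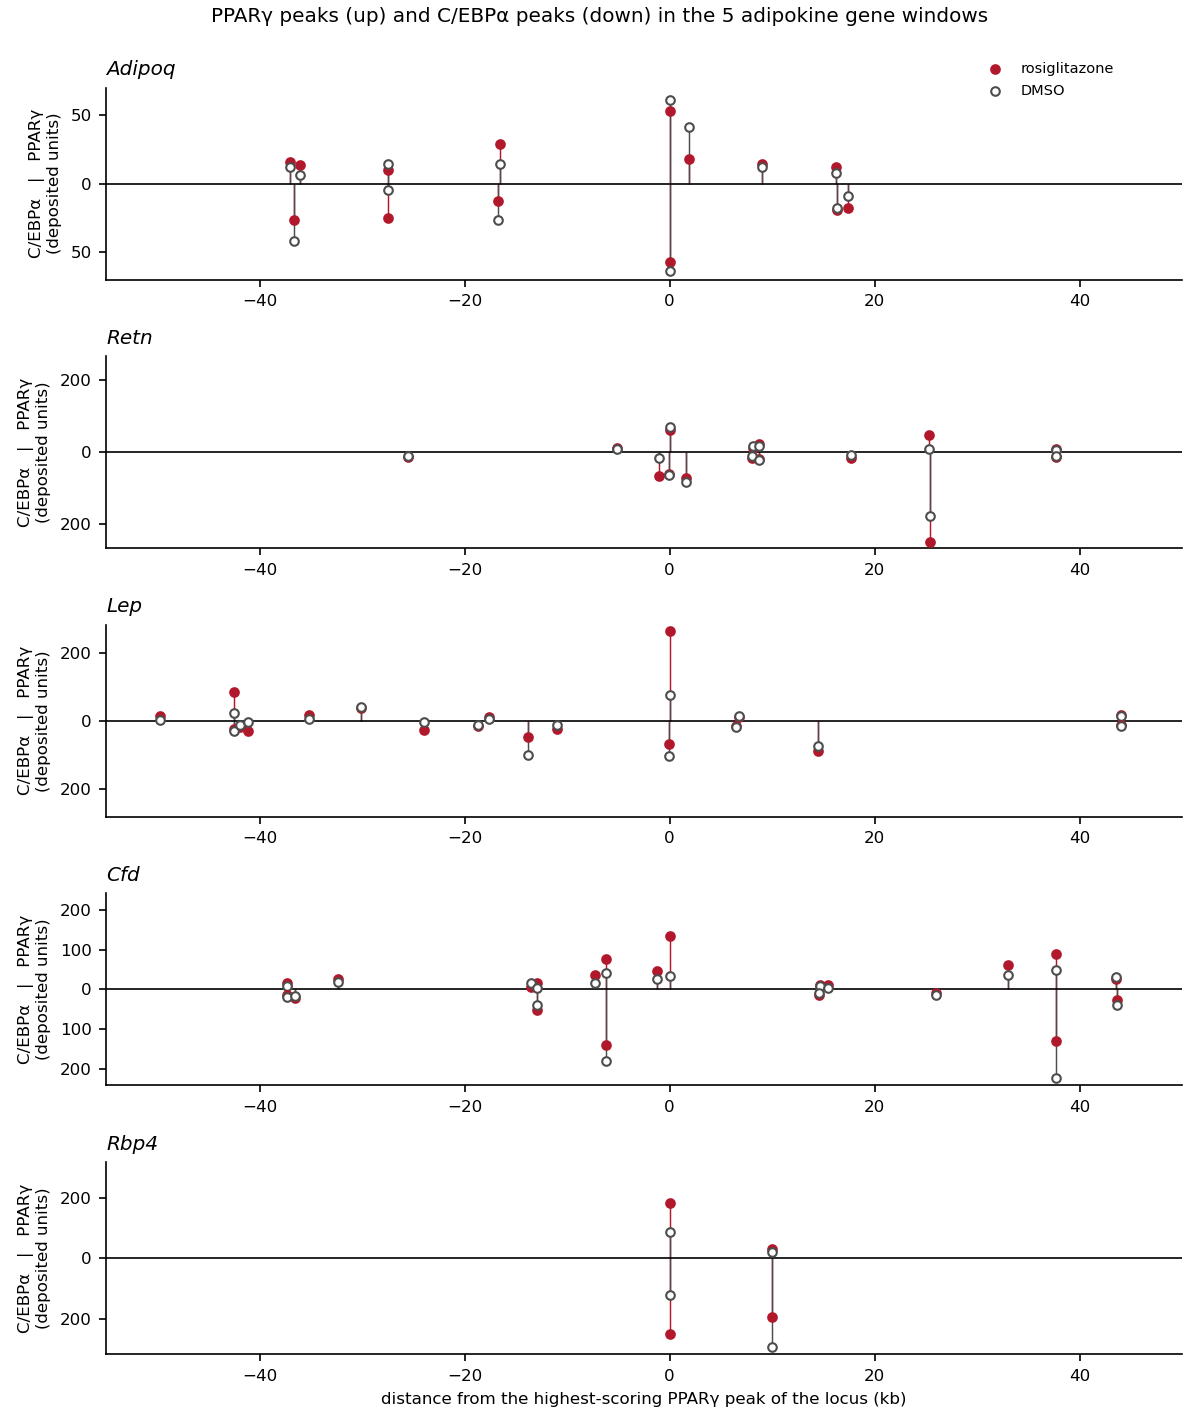
PPARγ peaks (upward stems) and C/EBPα peaks (downward stems) in each locus, with height in deposited units of the peak's own factor and position in kb from the locus's highest-scoring PPARγ peak. Filled points are rosiglitazone and open points DMSO, each 1 deposited column, and the vertical scale differs between loci. The filled points stand far above the open ones at the tallest Lep PPARγ peak (265 against 77.4 units) but not at the tallest Adipoq one (53.2 against 61.6).

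PPARγ differed between the loci in its ratio of rosiglitazone to DMSO. Summed over the peaks of a locus, Lep had 2.54 (2.16 to 2.99), Rbp4 2.0 (1.61 to 2.50), Cfd 1.91 (1.67 to 2.18), Retn 1.23 (0.993 to 1.54) and Adipoq 0.980 (0.800 to 1.20). Set against all other PPARγ peaks, whose ratio was 1.53, Lep was 1.67 times higher (1.42 to 1.96), Rbp4 1.31 times (1.05 to 1.64) and Cfd 1.25 times (1.10 to 1.43). Adipoq was at 0.642 times the ratio of the other peaks (0.524 to 0.787). Retn was at 0.809 times (0.651 to 1.01), an interval that includes 1. Of the 10 pairs of loci, 6 differed beyond counting error with intervals adjusted for 10 pairs (99.5%), namely Adipoq and Retn each against Lep, Cfd and Rbp4. Lep, Rbp4 and Cfd could not be told apart at that level, nor could Adipoq and Retn. The pairs were not recomputed without single peaks. Without its tallest peak Retn had 1.67 (1.24 to 2.28), an interval that includes the ratios of Cfd and Rbp4 but not that of Lep.

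Single peaks weigh heavily in these sums. Without its tallest peak Lep had a ratio of 1.88 (1.50 to 2.37), Cfd 1.64 (1.42 to 1.90) and Retn 1.67 (1.24 to 2.28). Rbp4 then rests on 1 peak, with 1.46 (0.849 to 2.55). Each of these intervals includes 1.53, the ratio of all other PPARγ peaks. In the C/EBPα peak windows of the same loci the PPARγ ratio kept this order at both ends, with 2.53 for Lep (2.11 to 3.06), 1.33 for Retn (1.07 to 1.64) and 1.10 for Adipoq (0.852 to 1.41). There 4 of 10 pairs differed with adjusted intervals, since Retn against Cfd (0.739, 0.488 to 1.12) and against Rbp4 (0.739, 0.484 to 1.13) no longer did. Set against all other C/EBPα peak windows, the PPARγ ratio was 1.60 times higher for Lep (1.33 to 1.93). Adipoq was at 0.691 times the ratio of those other windows (0.537 to 0.890). For Retn (0.837, 0.677 to 1.04), Cfd (1.13, 0.931 to 1.38) and Rbp4 (1.13, 0.924 to 1.39) that interval includes 1. The C/EBPα windows overlap the PPARγ peaks at 20 sites, so they partly cover the same DNA.

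Peak by peak, the adipokine loci were close to the rest of the list in how many peaks passed a fold. PPARγ was at least 2-fold higher, with 1 unit added to both values, at 10 of the 37 peaks (27.0%), beside 30.0% of all PPARγ peaks. It was at least 2-fold lower at 2 (5.41%), beside 4.43%. The ratio was above 1 beyond counting error at 14 of the 37 (37.8%), beside 28.1% of all peaks, and below 1 at 1 (2.70%), beside 3.83%. Those 14 were 7 in Cfd, 4 in Lep and 1 each in the other 3 loci. The shares by interval were not matched for tags. Median PPARγ tags were 22 in rosiglitazone and 18 in DMSO at the 37 peaks, and 17 and 12 over all PPARγ peaks.

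**Figure D2:**
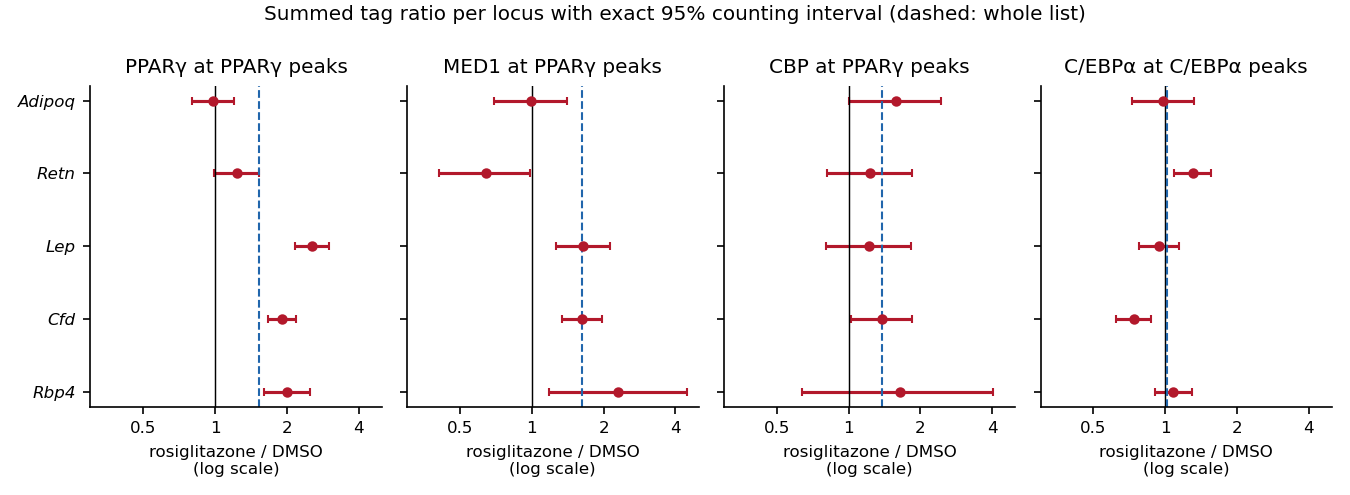
Summed tags in rosiglitazone over DMSO for each locus and factor, on a log axis, with exact 95% counting intervals from 1 deposited column per treatment. The solid line marks 1 and the dashed line the ratio over the whole list. PPARγ lies above 1 in Lep (2.54), Cfd (1.91) and Rbp4 (2.0) and near 1 in Adipoq (0.980), and MED1 is lowest in Retn (0.641).

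At Lep, the leptin locus, the largest PPARγ peak of the 5 loci lay on chromosome 6 from 29023859 to 29024045. With a deposited score of 172.2 it ranked 85 in the list, within its top 0.278%. PPARγ there was 265 units in rosiglitazone and 77.4 in DMSO, a ratio of 3.43 (2.70 to 4.39). MED1 was 421 and 224 units, a ratio of 1.88 (1.29 to 2.74), and CBP 127 and 64.1 units, a ratio of 1.99 (1.08 to 3.61). All 3 were therefore higher with the drug beyond counting error. The PPARγ interval lies above 1.53, the ratio over all PPARγ peaks. Those of MED1 and CBP include the ratios over all PPARγ peaks, 1.63 and 1.38. C/EBPα went the other way at this site, with 44.6 and 79.5 units, a ratio of 0.561 (0.342 to 0.919).

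A further tall Lep peak, shared with C/EBPα, lay 42.5 kb away, from 28981310 to 28981496. Its PPARγ was 86.5 and 22.0 units, a ratio of 3.93 (2.52 to 6.35), the highest at Lep. MED1 was 329 and 224 units, with a ratio of 1.47 whose interval includes 1 (0.976 to 2.20), and CBP was 84.9 and 99.5 units. Weaker peaks from 28974098 and 28988689 also had more PPARγ with rosiglitazone, with 13.3 and 3.52 units (ratio 3.78, 1.22 to 15.5) and 18.3 and 5.28 units (3.47, 1.36 to 10.5). The peak from 28993750, 38.2 and 40.5 units high, did not differ, with a ratio of 0.945 (0.614 to 1.45). The peaks from 29006223, 29030579 and 29067951 lay between 9.98 and 18.3 units in rosiglitazone and 6.16 and 14.1 in DMSO, each with an interval that includes 1.

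C/EBPα at Lep was mostly separate from PPARγ. Its highest-scoring peak, from 29023740 to 29023970, overlapped the tallest PPARγ peak and had 67.5 units in rosiglitazone and 104 in DMSO, a ratio of 0.650 (0.431 to 0.985). Next came an unshared peak from 29038271 with 89.2 and 75.1 units (1.19, 0.778 to 1.85). An unshared peak from 29010054 to 29010284 had 48.4 and 102 units, a ratio of 0.477 (0.302 to 0.749). It was the lowest C/EBPα ratio at Lep among peaks with at least 20 tags, and PPARγ there was 8.31 and 7.91 units. In contrast, the unshared peak from 28982709 had 29.3 and 4.42 units of C/EBPα, a ratio of 6.63 (1.64 to 58.0), from only 2 tags in DMSO. The shared peak from 28981308 had 22.9 and 28.7 units, and the other 6 peaks lay between 11.5 and 26.8 in rosiglitazone and 4.42 and 17.7 in DMSO. Of these 6, the unshared peak from 28999833 was higher with the drug beyond counting error, again from 2 tags in DMSO (6.06, 1.48 to 53.3).

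At Cfd, the adipsin locus, 11 of 13 PPARγ peaks had a higher value with rosiglitazone (84.6%), as did 70.5% of all PPARγ peaks. The tallest, from 79353539 to 79353725 with a score of 85.0, had 134 units in rosiglitazone and 34.3 in DMSO, a ratio of 3.90 (2.74 to 5.69). No C/EBPα peak overlapped it, and C/EBPα there was 8.92 and 11.0 units. MED1 was 344 and 199 units, a ratio of 1.73 (1.14 to 2.60), and CBP was 18.2 and 15.5 units. The medians of the 13 Cfd peaks were 61.2 and 38.4 units for MED1 and 18.2 and 15.5 for CBP, so its MED1 was above the median of the locus and its CBP at it.

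The next 2 Cfd peaks by score were shared with the strongest C/EBPα peaks of the locus, and their PPARγ ratios had intervals below that of the tallest peak. The peak from 79391269 had 89.0 and 48.4 units of PPARγ, a ratio of 1.84 (1.32 to 2.59). The peak from 79347292 had 76.5 and 41.3 units, a ratio of 1.85 (1.29 to 2.69), and the most MED1 of the 37 PPARγ peaks, 528 units in rosiglitazone and 252 in DMSO (2.10, 1.49 to 2.96). The fourth by score, from 79386535, had 61.5 and 36.9 units (1.67, 1.13 to 2.49) with 7.65 and 6.99 units of MED1 and 6.06 and 4.42 of CBP, which are also the medians over all PPARγ peaks. The highest ratio among the 13, at peaks with at least 20 tags, was 6.30 (1.87 to 33.1) from 79340550, with 16.6 and 2.64 units. The lowest, 0.420 (0.158 to 1.02), lay under 1 kb away from 79340003, with 6.65 and 15.8 units. The other 7 Cfd peaks ranged from 10.8 to 46.6 units in rosiglitazone and from 4.40 to 30.8 in DMSO. Those from 79346286 (2.14, 1.22 to 3.89) and 79352278 (1.83, 1.15 to 2.97) were higher with rosiglitazone beyond counting error.

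C/EBPα at Cfd was lower with rosiglitazone in sum. Over its 8 peaks the ratio was 0.737 (0.621 to 0.875), or 0.728 times that of all other C/EBPα peaks (0.614 to 0.864). The highest-scoring peak, from 79391192, had 129 units in rosiglitazone and 223 in DMSO, a ratio of 0.577 (0.433 to 0.768), and ranked 312 in its list. The peak from 79347291 had 139 and 179 units (0.776, 0.577 to 1.05). The peaks from 79340567, with 51.0 and 39.8 units, and from 79397215, with 25.5 and 39.8, did not differ beyond counting error. The remaining 4, from 79316187, 79316922, 79368115 and 79379500, lay between 8.92 and 20.4 units in rosiglitazone and 8.83 and 19.9 in DMSO. Without the peak from 79391192 the sum had a ratio of 0.849 (0.684 to 1.06), which includes 1.

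At Rbp4, both PPARγ peaks coincided with C/EBPα peaks that ranked among the highest 0.521% of their list. The peak from 38161472 to 38161658 had 184 units of PPARγ in rosiglitazone and 86.2 in DMSO, a ratio of 2.13 (1.67 to 2.73). The other, 9.95 kb away from 38171419 to 38171605, had 30.8 and 21.1 units, a ratio of 1.46 (0.849 to 2.55).

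The C/EBPα values of the Rbp4 pair differed in opposite directions. The C/EBPα peak from 38161452 had 252 units in rosiglitazone and 121 in DMSO, a ratio of 2.08 (1.53 to 2.85). That from 38171415 had 196 and 294 units, a ratio of 0.668 (0.526 to 0.849). Their sum had a ratio of 1.08 (0.902 to 1.30). For MED1 the first PPARγ peak had the lower ratio, with 45.9 and 41.9 units (1.09, 0.337 to 3.15) from 6 and 12 tags. The second had 115 and 28.0 units (4.11, 1.63 to 11.2) from 15 and 8 tags. These 2 intervals overlap, and the 2 ratios were not compared directly. CBP was 54.6 and 19.9 units at the first and 0 and 13.3 at the second, where no CBP tag was counted in rosiglitazone and 6 in DMSO.

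**Figure D3:**
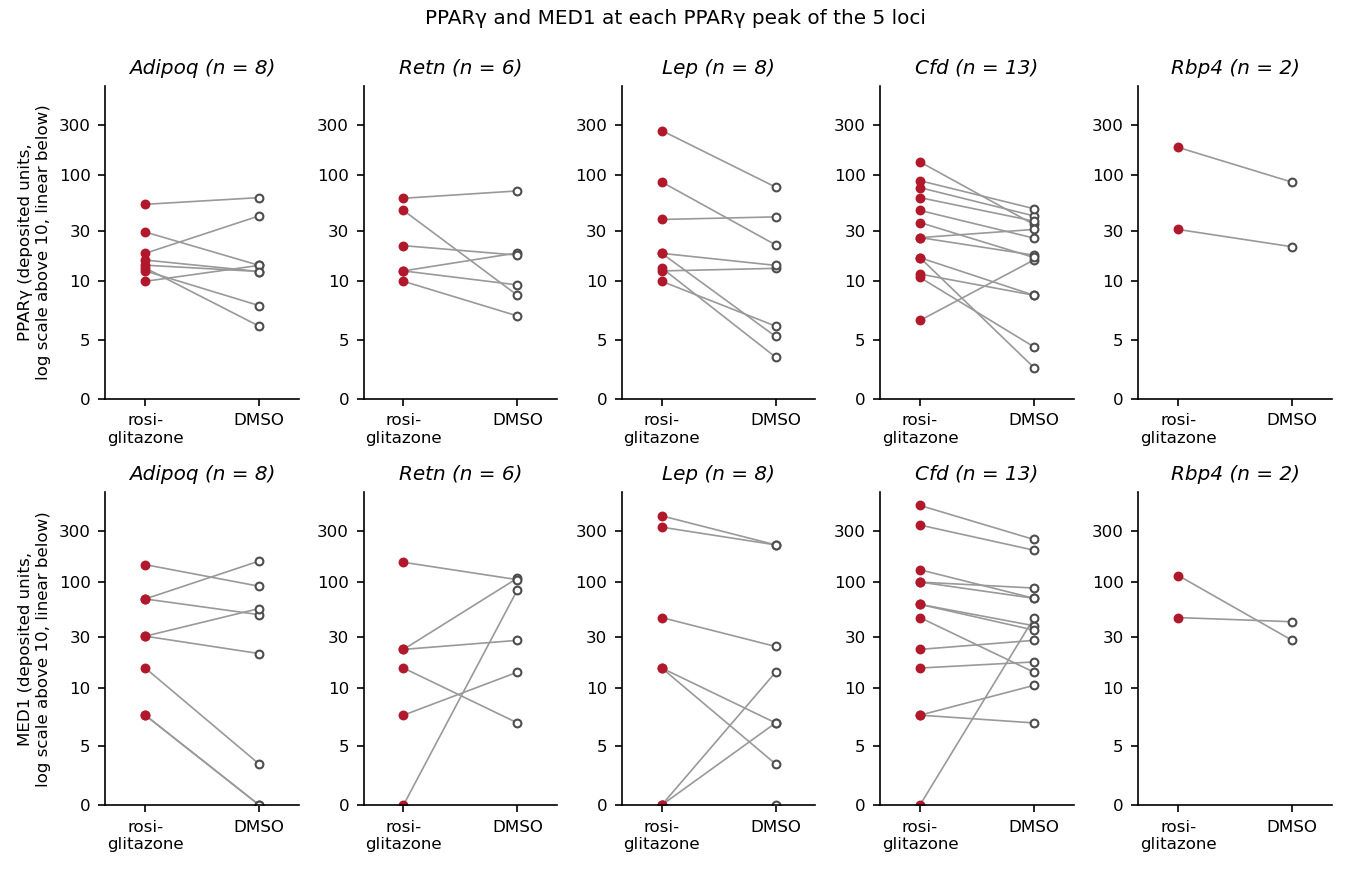
PPARγ (upper row) and MED1 (lower row) in deposited units at every PPARγ peak of each locus, with a line joining the rosiglitazone and DMSO values of 1 peak. The axis is logarithmic above 10 and linear below, and each treatment is 1 deposited column. PPARγ has its higher value with rosiglitazone at 28 of the 37 peaks (75.7%), beside 70.5% of all PPARγ peaks, and at most peaks of each locus. At the tallest Adipoq and Retn PPARγ peaks MED1 is lower with rosiglitazone (68.9 against 157 units and 23.0 against 108).

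At Adipoq, the adiponectin locus, PPARγ was not higher with rosiglitazone at the tall peaks. The tallest, shared with C/EBPα and from 23144448 to 23144634, had 53.2 units in rosiglitazone and 61.6 in DMSO, a ratio of 0.864 (0.606 to 1.23). Its neighbour 1.87 kb away, from 23146322 to 23146508, had 18.3 and 41.3 units, a ratio of 0.443 (0.254 to 0.749). That was the only PPARγ peak of the 37 below 1 beyond counting error. No C/EBPα peak overlapped it, and MED1 was 30.6 and 55.9 units (0.547, 0.133 to 1.70).

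The weaker Adipoq peaks had a different balance. The shared peak from 23127924 had 29.1 and 14.1 units of PPARγ, a ratio of 2.07 (1.11 to 4.0). Those from 23107439, 23108395, 23116936, 23153504 and 23160637 lay between 9.98 and 15.8 units in rosiglitazone and 6.16 and 14.1 in DMSO, with intervals that include 1. The first of these 5 had 145 and 90.9 units of MED1, where the median over the 37 peaks was 30.6 and 28.0.

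MED1 and CBP went apart at the tallest Adipoq peak. MED1 was 68.9 units in rosiglitazone and 157 in DMSO, a ratio of 0.438 (0.188 to 0.907), from 9 and 45 tags. CBP was 97.0 and 42.0 units, a ratio of 2.31 (1.11 to 4.74), from 16 and 19 tags. In the C/EBPα window of the same site the MED1 ratio was 0.565 (0.304 to 0.991) and the CBP ratio 1.44 (0.807 to 2.50), so the CBP difference did not exceed counting error there. Over all 8 PPARγ peaks of Adipoq the MED1 ratio was 0.993 (0.694 to 1.40), or 0.611 times that of the other peaks of the list (0.426 to 0.864). This rests on the tallest peak, since without it the MED1 ratio was 1.39 (0.911 to 2.10), an interval that includes the 1.63 of the other peaks. In the C/EBPα windows of Adipoq, MED1 was at 0.744 times the ratio of the other windows (0.519 to 1.05), which includes 1.

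C/EBPα at Adipoq hardly differed in sum, with a ratio of 0.974 over 6 peaks (0.725 to 1.32). The tallest peak, from 23144464, had 57.3 units in rosiglitazone and 64.0 in DMSO. The peak from 23116929 had 25.5 and 4.42 units, a ratio of 5.77 (1.40 to 50.9) that rests on 2 tags in DMSO. The other 4 peaks, from 23107799, 23127697, 23160726 and 23161856, had intervals that include 1, with 12.7 to 26.8 units in rosiglitazone and 8.83 to 42.0 in DMSO. At the last, PPARγ had 10 tags in rosiglitazone and 0 in DMSO, a ratio with a lower bound of 2.12.

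At Retn, the resistin locus, PPARγ differed at 1 of 6 peaks. The tallest, shared and from 3646924 to 3647110, had 60.7 units in rosiglitazone and 71.2 in DMSO, a ratio of 0.852 (0.612 to 1.18). The peak from 3672268 to 3672454, 25.3 kb away, had 46.6 and 8.79 units, a ratio of 5.29 (2.68 to 11.6). It sat on the highest C/EBPα peak of the locus. The peaks from 3641746, 3655011, 3655593 and 3684598 lay between 9.98 and 21.6 units in rosiglitazone and 7.03 and 18.5 in DMSO, with intervals that include 1.

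MED1 at Retn was lower with rosiglitazone, the only locus sum of MED1 below 1 beyond counting error. Over the 6 PPARγ peaks it had 29 tags in rosiglitazone and 99 in DMSO, a scaled ratio of 0.641 (0.409 to 0.979), or 0.394 times that of the other PPARγ peaks (0.251 to 0.602). The tallest peak had 23.0 and 108 units, a ratio of 0.212 (0.0415 to 0.679). The peak from 3655593 to 3655779 had 0 tags in rosiglitazone and 24 in DMSO (83.9 units), a ratio with an upper bound of 0.364. PPARγ at that peak was 21.6 and 17.6 units. CBP did not follow, with 103 and 64.1 units at the tallest peak (1.61, 0.829 to 3.03) and 72.8 and 44.2 units at the other (1.65, 0.734 to 3.54). The peak from 3672268 had 153 and 105 units of MED1 (1.46, 0.786 to 2.66), and without it the Retn ratio was 0.286 (0.125 to 0.574). The tallest peak and that from 3655593 held 31 and 24 of the 99 DMSO tags, but 3 and 0 of the 29 in rosiglitazone. The sum was not recomputed without either of them. Whether it would then stay below 1 beyond counting error is not known.

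C/EBPα at Retn was higher with rosiglitazone in sum, with a ratio of 1.30 over 9 peaks (1.09 to 1.56), or 1.29 times that of all other C/EBPα peaks (1.08 to 1.54). Without its highest peak the ratio was 1.21 (0.952 to 1.54), which includes 1. The highest peak, from 3672278 to 3672508, ranked 125 in its list and had 251 units in rosiglitazone and 177 in DMSO, a ratio of 1.42 (1.09 to 1.87). An unshared peak from 3645897 had 65.0 and 15.5 units, a ratio of 4.20 (1.90 to 11.0), the highest at Retn. Its neighbours from 3646841, with 61.1 and 64.0 units, and from 3648475, with 71.3 and 83.9 units and the lowest ratio of the locus at 0.850 (0.553 to 1.32), did not differ beyond counting error. The other 5 peaks ranged from 12.7 to 19.1 units in rosiglitazone and from 8.83 to 22.1 in DMSO.

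Across the loci, MED1 sums separated Retn from 3 others. The MED1 ratio was 2.30 for Rbp4 (1.19 to 4.47), 1.64 for Lep (1.27 to 2.12), 1.63 for Cfd (1.34 to 1.98), 0.993 for Adipoq and 0.641 for Retn. With intervals adjusted for 10 pairs, Retn differed from Lep, Cfd and Rbp4, and no other pair did. These pairs were not recomputed without the 2 Retn peaks that were lower in MED1. The Rbp4 value rests on its second peak, since the first alone had 1.09. MED1 was at least 2-fold higher at 9 of the 37 peaks (24.3%), beside 29.8% of all PPARγ peaks, and at least 2-fold lower at 6 (16.2%), beside 22.5%. Beyond counting error it was higher at 4 (10.8%), beside 10.2%, and lower at 4 (10.8%), beside 1.64%. Those higher were the tallest Lep peak, the Cfd peaks from 79347292 and 79353539, and the second Rbp4 peak. Those lower were 2 at Retn, 1 at Adipoq and 1 at Cfd, from 79346286, with 0 units in rosiglitazone and 45.4 in DMSO. The shares by interval were not matched for tags. The median MED1 tags were 4 in rosiglitazone and 8 in DMSO at the 37 peaks, and 1 and 2 over all PPARγ peaks.

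CBP sums did not separate the loci. They lay between 1.22 for Lep (0.807 to 1.82) and 1.65 for Rbp4 (0.635 to 4.02), and 0 of 10 pairs differed beyond counting error. CBP was at least 2-fold higher at 9 of the 37 peaks (24.3%), beside 23.6% of all PPARγ peaks, and lower at 10 (27.0%), beside 25.1%. Beyond counting error it was higher at 3 (8.11%), beside 6.40%, and lower at 0, beside 0.503%. The 3 were the tallest Adipoq and Lep peaks and the Cfd peak from 79397112, with 84.9 and 33.2 units.

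C/EBPα showed no common direction over the 36 C/EBPα peaks, with a summed ratio of 0.992 (0.912 to 1.08). It was at least 2-fold higher at 5 peaks (13.9%), beside 15.9% of all C/EBPα peaks, and lower at 2 (5.56%), beside 9.25%. Beyond counting error it was higher at 6 (16.7%), beside 7.95%, and lower at 4 (11.1%), beside 6.23%. These shares were not matched for tags. Median C/EBPα tags were 19.5 in rosiglitazone and 8.5 in DMSO at the 36 peaks, and 13 and 7 over all C/EBPα peaks. Retn differed from Cfd, and Cfd from Rbp4, with intervals adjusted for 10 pairs.

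Counts by fold include peaks with very few tags, so they were repeated over peaks with at least 20 tags of the factor. PPARγ was then at least 2-fold higher at 9 of 35 peaks, beside 30.3% of such peaks in its list, and lower at 2, beside 4.03%. MED1 was higher at 2 of 15, beside 45.1%, and lower at 3, beside 8.14%. The 3 were the tallest Adipoq and Retn peaks and the Retn peak from 3655593. CBP was higher at 2 of 13, beside 22.7%, and lower at 0, beside 5.70%. C/EBPα was higher at 5 of 25 C/EBPα peaks, beside 13.8%, and lower at 2, beside 7.38%.

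**Figure D4:**
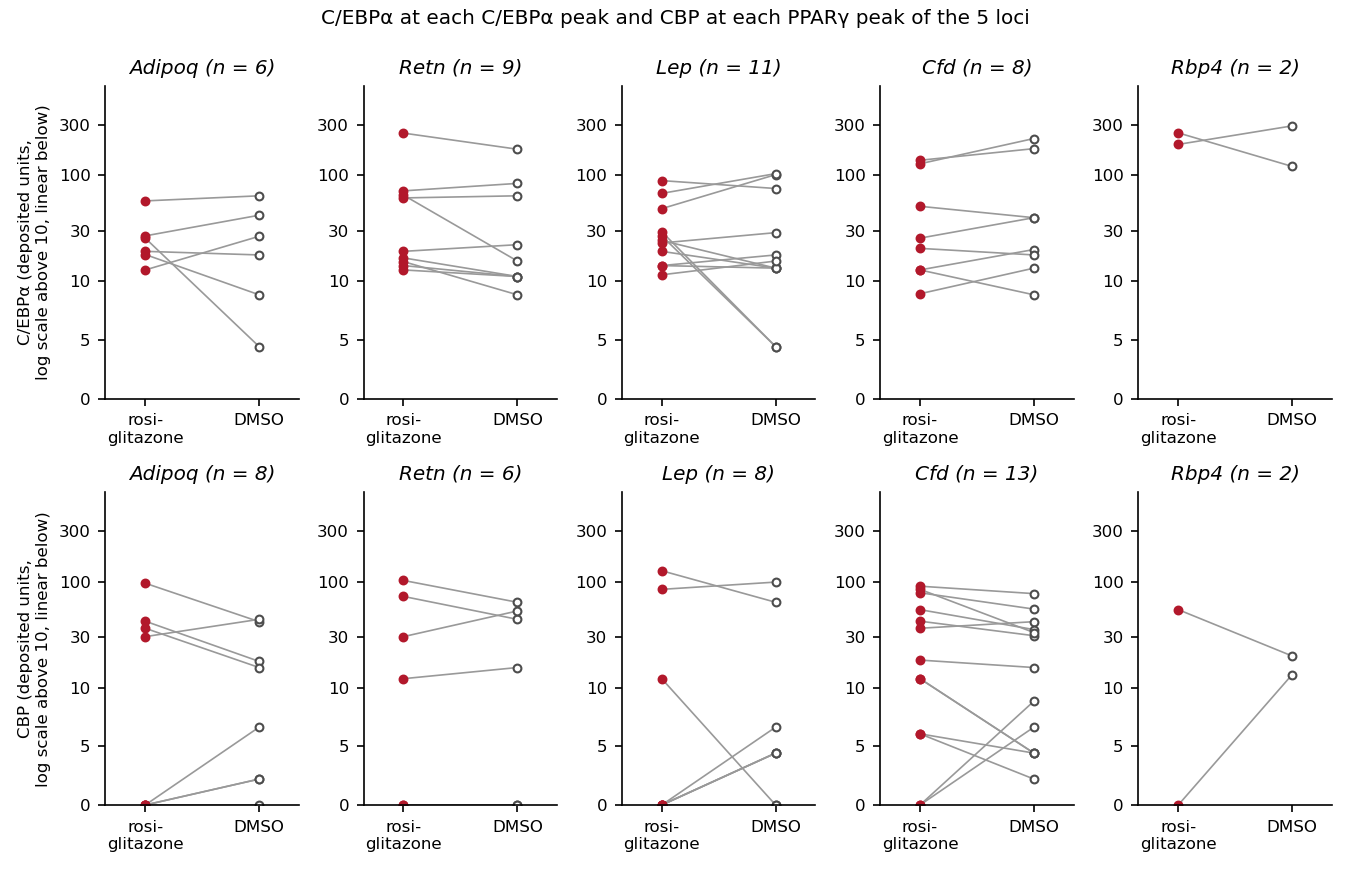
C/EBPα at every C/EBPα peak (upper row) and CBP at every PPARγ peak (lower row) of each locus, in deposited units, with lines joining the rosiglitazone and DMSO values of 1 peak. The axis is logarithmic above 10 and linear below, and each treatment is 1 deposited column. The 2 Rbp4 lines of C/EBPα cross (252 against 121 units and 196 against 294), and CBP is 0 at 14 of 37 peaks in rosiglitazone (1 tag is 6.06 units) and at 5 in DMSO (1 tag is 2.21 units).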

How the data were processed

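ChIP-seq libraries of PPARγ, C/EBPα, MED1 and CBP were read from a PPARγ and a C/EBPα peak list as the authors deposited them. The submitters' processing notes name HOMER, Bowtie, edgeR and FastQC and build mm9. The sources used here state no role, version, peak setting or pooling for them. The deposited signal is a tag count per peak scaled by 1 factor per column. The deposited score and the focus ratio, a fraction per peak, describe peaks, and the fraction was not used further.

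In all 8 signal columns 100% of values above 0 were whole multiples of a step (tolerance 0.02 steps), so tags were recovered. If the scale is 10 M tags, which no header states, depths were 12.0 and 11.4 M for PPARγ in rosiglitazone and DMSO, 7.85 and 4.53 for C/EBPα, 1.31 and 2.86 for MED1, and 1.65 and 4.52 for CBP. PPARγ has 2 labelled samples per treatment, but neither of its columns carries a number, so whether a column is 1 sample or a pool is not known. The MED1 column headed BRL, a code of rosiglitazone, belongs to MED1 with that drug, for which there is a single sample. With 1 column per treatment no count model could be fitted and no p-value is given.

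Log2 ratios use a pseudocount of 1 unit. Ratios of tags have exact 95% intervals, and ratios of ratios have exact conditional intervals. With 1 column per treatment, intervals cover counting error only. Tags carry no molecular identifiers, so copies of 1 fragment could not be told apart and the intervals may be too narrow. Peaks with at least 1 bp in common were shared. Python 3.11.15, NumPy 2.4.6, pandas 2.3.3, SciPy 1.17.1 and Matplotlib 3.10.9 were used, and the code was tested on simulated tags.

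Every peak was named in a locus and list with at most 8. Otherwise the 4 with the highest score were named, with the highest and lowest ratio of the list's factor among peaks with at least 20 tags. The members were chosen with earlier results of these data known. Calls by interval and ratios of ratios were chosen after seeing the data. Other adipokine genes were not counted, since no mm9 annotation was used.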

Additional observations from a re-analysis of the deposited data

How the results depend on the processing

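No paired analysis was possible because each factor had 1 column per treatment and the PPARγ columns carry no replicate number, so leaving out a replicate was not possible either. Of 145 recomputed summed ratios 118 stayed within the reported interval, 25 moved out of it and 2 with an interval beyond 1 reversed (14 values in all lay on the other side of 1), while 28 of 40 fold counts, 11 of 20 peak counts and 8 of 12 counts of shared peaks stayed within 1.5 times. Division by the ratio of the whole list gave 11 of the 25 and the 2 reversals. Such a quotient is a different quantity from the ratio, so these labels do not mark a result that changed. Relative to the whole list, PPARγ ratios were 0.642 for Adipoq, 0.809 for Retn, 1.66 for Lep, 1.25 for Cfd, 1.31 for Rbp4 and 1.16 for all loci. MED1 ratios were 0.611, 0.395, 1.01 and 1.00 for Adipoq, Retn, Lep and Cfd. For all loci the MED1 quotient was 0.852, where the undivided ratio was 1.39 (1.22 to 1.57). CBP was 1.00 for Cfd and 0.984 for all loci, where the undivided ratio was 1.36 (1.13 to 1.62). Without the peak with most tags, PPARγ was 1.67 for Retn, 1.88 for Lep, 1.64 for Cfd, 1.46 for Rbp4 and 1.61 for all loci. MED1 was then 0.286 for Retn and 1.09 for Rbp4, CBP 0 for Rbp4, and C/EBPα at Rbp4 2.04 (PPARγ peaks) and 2.08 (C/EBPα peaks). C/EBPα at Lep was 0.596 at PPARγ peaks and 0.939 at C/EBPα peaks. In the central 50% of the window, PPARγ at Cfd was 2.26 and C/EBPα 0.890. That setting left 5, 3, 8 and 0 PPARγ peaks at Adipoq, Lep, Cfd and Rbp4, and 7, 3 and 0 C/EBPα peaks at Lep, Cfd and Rbp4. A score at or above the list median left 5 C/EBPα peaks each at Retn and Cfd. With centres within 50 bp, 12 PPARγ peaks were shared, 2 at Adipoq, 1 at Lep and 3 at Cfd. The share of the whole list under that rule was not computed, so whether sharing at the loci still exceeds it is not known. With a pseudocount of 5, lower PPARγ and C/EBPα peaks numbered 0 each and lower CBP peaks 5, and the shares of the whole lists were not computed. With at least 20 tags, MED1 was higher at 2 and lower at 3, and CBP higher at 2 and lower at 0. By interval, chosen after seeing the data, PPARγ was lower at 1, MED1 higher at 4, CBP higher at 3 and lower at 0, and C/EBPα lower at 4. The cause was not tested. Few tags limit what single MED1 and CBP peaks can show.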

Other observations

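Some tall PPARγ peaks held few coactivator tags for their score. They were picked after their values were seen and get no test. The 11 of the 37 peaks in the top 10% of the list by score were looked at, and others held many tags. For the Cfd peak from 79347292, 96.6% of peaks at least as high had no more MED1 tags. For the Lep peak from 28981310 that share was 94.4%. The Lep peak from 28993750, with 38.2 units of PPARγ in rosiglitazone and 40.5 in DMSO, had 4 MED1 and 2 CBP tags over both treatments. Among the 2095 PPARγ peaks with at least its score the median was 20 MED1 and 17 CBP tags, and 15.3% had as few MED1 and 6.54% as few CBP tags. The Cfd peak from 79386535 had 3 MED1 and 3 CBP tags, where 1447 peaks at least as high had medians of 25 and 20, and 9.19% and 7.74% had as few. The tallest Cfd peak, from 79353539, was uneven, with 102 MED1 tags (median 39 of 447 peaks) and 10 CBP tags (median 28), a CBP number that 17.7% of those peaks did not exceed.

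In the Cfd window a weak C/EBPα peak, from 79379500, overlapped no PPARγ peak. It too was picked after its values were seen and gets no test. C/EBPα there was 8.92 units in rosiglitazone and 13.2 in DMSO and PPARγ 8.31 and 4.40, and MED1 was 153 and 35 units, a ratio of 4.38 (1.96 to 10.5), from 20 and 10 tags. Over all C/EBPα peaks the MED1 ratio was 1.43. CBP at this peak had 0 tags in rosiglitazone and 7 in DMSO, a ratio with an upper bound of 1.90, so it did not differ beyond counting error.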
